A study of Mus musculus with 141 samples.

Results

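Id1, Id2 and Id3, which encode ID proteins, and Tcf3, Tcf4 and Tcf12, which encode E proteins, were followed cell by cell in mouse bone marrow progenitors. These 6 genes were taken by symbol from the 46078 gene rows of the count table, and each symbol matched 1 Ensembl identifier. They were chosen by their levels in these same cells, which were known when the list was drawn up, so the levels below are descriptions. The study sorted and sequenced single cells of 2 progenitor populations. Basophil/mast cell progenitors (BMCP, 94 cells) were sorted as live, lineage-negative, Sca1-negative cells that carried cKit and stained strongly for integrin beta7 and CD16/32. Granulocyte/monocyte progenitors (GMP, 47 cells) had the same lineage, cKit and Sca1 profile, were CD34-positive and CD16/32-high, and lay outside the BMCP gate. All cells came from 3 female C57BL/6 mice, whose age the labels do not give. Which mouse gave which cell is not stated, so each population was 1 sample and no test between populations was possible.

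E proteins are class I basic helix-loop-helix (bHLH) transcription factors that bind E-box DNA (CANNTG) as homodimers or as heterodimers with lineage-restricted class II bHLH factors such as TAL1. ID proteins have the helix-loop-helix but lack the basic region that contacts DNA, so an ID protein that pairs with an E protein keeps it off its sites. Tcf3 encodes E12 and E47, Tcf4 encodes E2-2 and Tcf12 encodes HEB. The family is best known for directing lymphoid development, where E proteins drive B and T cell programmes and ID2 is needed for natural killer and innate lymphoid cells. The Tcf7 and Lef1 factors of the WNT pathway share the TCF name but belong to another protein family.

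The members lie on 6 chromosomes of the mouse GRCm38 assembly as annotated in GENCODE vM21. Id1 (ENSMUSG00000042745) lies at chr2:152736251-152737410 on the plus strand, Id2 (ENSMUSG00000020644) at chr12:25093799-25097140 on the minus strand and Id3 (ENSMUSG00000007872) at chr4:136143497-136145755 on the plus strand. Tcf3 (ENSMUSG00000020167) lies at chr10:80409514-80433647 on the minus strand and Tcf12 (ENSMUSG00000032228) at chr9:71842688-72111871 on the minus strand. The Id genes are compact, with spans of 1.16 to 3.34 kb. Tcf4 and Tcf12 span 345.7 and 269.2 kb, with 62 and 21 annotated transcripts. Counts were per gene, so isoforms such as E12 and E47 were not told apart. The span of Tcf12 overlapped 11 other annotated genes, 4 of them on the opposite strand, which together held 3059 reads in BMCP and 2088 in GMP. The span of Tcf4 overlapped 1 other gene, with 40 reads in BMCP and 0 in GMP.

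Since E proteins read E-boxes, the E-boxes just upstream of the members are shown. RefSeq promoter sequences (GRCm38.p6) were at hand for 4 of the 6 members, and the 250 bases before each annotated start were searched on both strands for CANNTG. Matches in 3 members are printed 5′ to 3′ on the gene's strand, with the E-box in capitals. They lie at chr12:25096271-25096300 for Id2, at chr10:80433672-80433701 for Tcf3 and at chr9:72112040-72112069 for the first start of Tcf12, all on the minus strand.
Id2: aatttgccacccCAGCTGggctctcgcccg
Tcf3: agtgggcgtggtCACTTGggggcgtggctt
Tcf12: agatgctgccCAGCTGcgtccccgtcgcgg
The first base of the E-box stood 196 bases before the start in Id2, 54 in Tcf3 and 240 at the first start of Tcf12. Id2 and the first Tcf12 start carried the same palindromic form, CAGCTG, which is counted under CANNTG as well. Of all 32851 RefSeq windows of this length, 66.2% held CANNTG and 13% held CAGCTG, so a match is common. The Id3 window and that of the third Tcf12 start held no CANNTG. Both lie inside the GENCODE gene, and all 250 bases of each fall in exons. The Id2 start used here lies inside the GENCODE gene, and 161 of its 250 upstream bases fall in an exon of a longer transcript.

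After filtering, 89 BMCP and 41 GMP remained. Their nuclear-encoded counts per cell ranged from 96129 to 2416630 in BMCP (median 893037) and from 130191 to 3688848 in GMP (median 1309887), with a median of 5440 and 7001 genes detected. ERCC spike-in RNA took a median of 11.3% of counts in BMCP and 5.92% in GMP. Levels are counts per 1000000 nuclear-encoded counts (CPM), either per cell or over all summed counts of a population. Limits in brackets are exact 95% Poisson limits on summed counts or exact 95% Clopper-Pearson limits on shares of cells. Those of log2 ratios set the lower Poisson limit of 1 population against the upper limit of the other, and are therefore wider than 95% limits. All cover counting error only, since reads without molecular identifiers are not independent molecules. The 7 shared mast cell and basophil marker genes summed to between 1692 and 42829 CPM in each BMCP. The 7 neutrophil progenitor genes summed to between 543 and 101682 CPM in each GMP. Of 10 mast cell genes, Mcpt2, Mcpt4 and Mrgprb1 were at 0 in BMCP. Tpsab1 and Mrgprb2 had 1 read each there and Mcpt1 had 2, and 1 BMCP held nearly all Tpsb2 reads (0.0359 CPM without it). A BMCP, replicate 12, stood apart. Its 10 mast cell genes summed to 39.3 CPM, the lowest of all BMCP, and its neutrophil progenitor genes to 2922 CPM, the highest, against a BMCP median of 8.19. The sum of its 6 basophil genes was high as well, at 10262 CPM against a BMCP median of 632. This cell held nearly all reads of the basophil gene Prss34 (122 CPM over BMCP with it, 0.589 CPM without), which made up most of that sum. Its shared mast cell and basophil genes summed to 6490 CPM, and its 7 B cell genes to 1079 CPM, the highest of all BMCP. A GMP, replicate 30, held 1476 CPM of Gata1, 6.72 CPM of Elane and 7997 CPM of shared mast cell and basophil genes, against a GMP median of 1021. The BMCP numbered 1 to 47 and 48 to 94 differed in depth, with medians of 698384 and 1119900 counts, and are given apart where they bear on a result.

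BMCP carried Id2, of which GMP held almost none. Both populations carried all 3 E protein genes, and in GMP the largest share of cells carried Tcf3. Summed Id2 stood at 1060.0 CPM (1053 to 1067) for BMCP, while GMP had 3.73 CPM (3.24 to 4.27). Of the 6 members, 4 were at least 2-fold higher in BMCP on the log2(CPM + 1) scale (Id2, Id3, Tcf4 and Tcf12), 1 was at least 2-fold lower (Id1), and Tcf3 lay within 2-fold. Among all 14554 genes with at least 1 CPM in either population, 25.8% were at least 2-fold higher in BMCP and 21% at least 2-fold lower. The Id3 value came from a single cell, and 3 members remained at least 2-fold higher without the cell that held most reads of each gene. The ratios cannot tell a difference between progenitor types from one between these pools of cells.

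**Figure D1:**
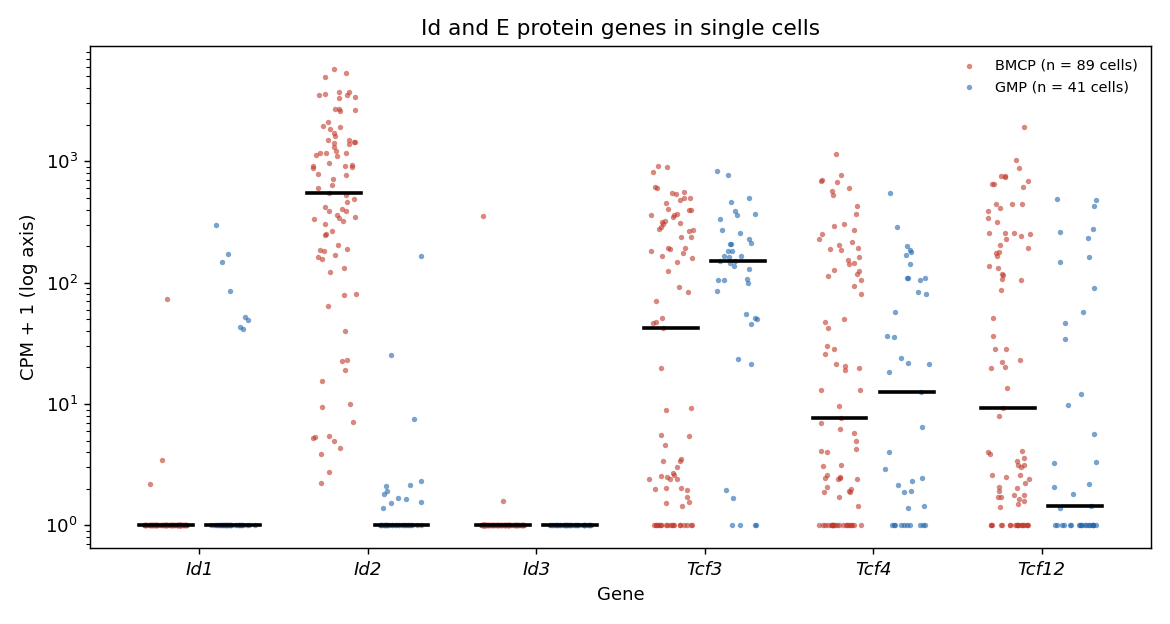
Level of each member in every cell, as CPM + 1 on a log axis, for 89 BMCP (red) and 41 GMP (blue); a point is a cell and a bar is the median over cells. Id2 lies at a median of 543 CPM in BMCP and 0 in GMP, while the E protein genes are spread over both populations with many cells at or near 0.

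Among the ID genes, Id2 was read in all 89 BMCP. Across BMCP, Id2 ranged from 1.24 to 5774 CPM, with a median of 543 CPM and quartiles of 161 and 1440 CPM. Across GMP it ranged from 0 to 166 CPM with a median of 0, and 13 of 41 cells had any read. The ranges overlapped, because the lowest BMCP fell among the few GMP with reads, yet 76 BMCP and 3 GMP held 10 or more reads. The log2 ratio of the summed level was 7.81 (7.64 to 7.98), rank 6 of 14554 genes. Without BMCP replicate 12 and GMP replicate 30 the ratio was 8.17. It was 8.06 with BMCP 1 to 47 only and 7.63 with BMCP 48 to 94 only.

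The Id2 reads of GMP sat in few cells. GMP replicate 16 held 124 of them, 59.9% of the total, GMP replicate 30 held 62 and GMP replicate 18 held 10. Summed Id2 in GMP was 1.52 CPM without replicate 16, 2.74 CPM without replicate 30 and 0.402 CPM (21 reads in 11 cells) without both. GMP replicate 16 was otherwise an ordinary GMP by its markers, with neutrophil progenitor genes at 48799 CPM against a GMP median of 46524. The Id2 level of GMP was 0.352% of that of BMCP. For 2 other genes high in BMCP, the mast cell protease gene Gzmb (granzyme B) and the actin-severing Scin, the level in GMP was 0.0158% and 0.0153% of that in BMCP, with at most 4 reads of Gzmb and 3 of Scin in any GMP. For Cpa3, which all 41 GMP had reads of, it was 15.7%.

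Id1, the classical BMP-responsive Id gene, was the member with the opposite direction. Its summed level was 0.890 CPM (0.700 to 1.12) for BMCP against 12.5 CPM (11.6 to 13.5) for GMP, which gave a log2 ratio of -2.84 (-3.09 to -2.57). In BMCP, 73 of 75 reads (97.3%) came from replicate 12. That cell had the lowest mast cell sum, a high basophil sum that was mostly Prss34, and the highest neutrophil progenitor sum. Without that cell the level was 0.0240 CPM and the log2 ratio -3.72. In GMP, 8 of 41 cells held 10 or more reads and the others held none. Those 8 cells lay at 299.6, 170.8, 147.1, 84.1, 51.2, 47.9, 42 and 40.8 CPM. The highest value was 39 reads in GMP replicate 8, the shallowest kept GMP, with 130191 counts and 30.2% spike-in. Id1 was therefore a gene of a minority of GMP that had a clear level where present. The 8 cells varied in other genes: Mpo (myeloperoxidase) ran from 1943 to 42092 CPM, Irf8 from 0 to 2125 CPM and Gata2 from 0 to 1582 CPM. Replicate 8 set the lowest Mpo and the highest Gata2, and the next values were 6640 and 274 CPM, both in GMP replicate 12. Tcf3 was present in all 8, at 99.0 to 830 CPM (the highest in replicate 8, the next at 229), and Id2 reached at most 0.804 CPM in them.

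Id3 was close to absent. Of 371 reads in BMCP, 370 (99.7%) came from replicate 6, at 353 CPM, and the summed level was 4.40 CPM with it and 0.0120 CPM without it. GMP held 0 reads, so the pooled BMCP level was at least 81.5-fold higher than a floor of 3 counts over the GMP pool. BMCP replicate 6 also carried Id2 at 915 CPM, Tcf4 at 675 CPM, Tcf12 at 239 CPM and Tcf3 at 50.5 CPM, and was the BMCP in which 5 members were detected together. Id4, the remaining ID gene of mammals, had 2 reads in BMCP and 0 in GMP.

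Of the E protein genes, Tcf3 had nearly the same summed level in both populations, 175 CPM for BMCP against 168 CPM for GMP, with a log2 ratio of 0.06 (0.00 to 0.11). The distribution over cells was not the same. Tcf3 ranged from 0 to 911 CPM in BMCP with a median of 41.6 CPM, and from 0 to 830 CPM in GMP with a median of 149 CPM. Tcf3 reached 10 or more reads in 44 of 89 BMCP (49.4%) and in 35 of 41 GMP (85.4%), and in those cells the median was 306 CPM for BMCP against 164 CPM for GMP. By these reads, a smaller share of BMCP held a higher level each, and the pooled sums came out alike. BMCP also had a median spike-in share of 11.3% against 5.92% in GMP, and 5440 genes detected against 7001. The part of RNA content per cell in this Tcf3 pattern was not tested. The Tcf3 sum gave a log2 ratio of -0.17 when each cell had equal weight. It was -0.81 when scaled to the spike-in RNA, a scaling that moved the median of all genes from 0.04 to -0.79.

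Tcf4, at chr18:69343356-69689079 on the plus strand (ENSMUSG00000053477), and Tcf12 were higher in the BMCP sum, and here too the cells differed widely. Summed Tcf4 reached 119 CPM (116 to 121) for BMCP against 53.6 CPM (51.7 to 55.5) for GMP, with a log2 ratio of 1.13 (1.05 to 1.21). Over cells, Tcf4 ran from 0 to 1139 CPM with a median of 6.61 CPM in BMCP, and from 0 to 547 CPM with a median of 11.5 CPM in GMP. The median was therefore lower in the population with the higher sum. In the cells with 10 or more reads, 37 of 89 BMCP and 21 of 41 GMP, the median was 187 CPM and 104 CPM. The ratio depended on the block of BMCP, at 1.57 for numbers 1 to 47 and 0.78 for numbers 48 to 94. BMCP replicate 50 alone held 16.2% of all Tcf4 reads in BMCP, and numbers 48 to 94 summed to 92.8 CPM with it and 64.6 CPM without it. With spike-in scaling the Tcf4 ratio was 0.27.

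Summed Tcf12 reached 178 CPM (175 to 181) for BMCP against 70.8 CPM (68.6 to 73.1) for GMP, with a log2 ratio of 1.32 (1.25 to 1.39). Over cells, Tcf12 ran from 0 to 1917 CPM with a median of 8.22 CPM in BMCP, and from 0 to 488 CPM with a median of 0.439 CPM in GMP. Tcf12 was the E protein gene that fewest GMP carried, with 10 or more reads in 13 of 41 cells against 43 of 89 BMCP. The order of the blocks was the reverse of that for Tcf4, with log2 ratios of 0.85 for BMCP 1 to 47 and 1.54 for BMCP 48 to 94. BMCP replicate 49 held 16% of the Tcf12 reads, with 152 CPM left without it, and GMP replicate 29 held 23.0% of those of GMP, with 56.4 CPM left. With spike-in scaling the Tcf12 ratio was 0.46.

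To compare cells at 1 depth, each cell was thinned to 200000 reads (86 BMCP and 40 GMP were deep enough), and a gene was called detected at 10 or more reads. Id2 was detected in 70 of 86 BMCP (81.4%, limits 71.6 to 89) and in 1 of 40 GMP (2.50%). Tcf3 was detected in 42 of 86 BMCP (48.8%, 37.9 to 59.9) and 30 of 40 GMP (75%, 58.8 to 87.3). Tcf4 was detected in 31 BMCP (36%, 26 to 47.1) and 15 GMP (37.5%, 22.7 to 54.2), shares that could not be told apart by counting error. Tcf12 was detected in 34 BMCP (39.5%, 29.2 to 50.7) and 10 GMP (25%, 12.7 to 41.2), and these limits overlapped. Id1 was detected in 1 BMCP and 5 GMP, and Id3 in 1 BMCP and 0 of 40 GMP, for which the limit of 3 cells allows a share of up to 7.50%, and the exact upper limit is 8.81%. At 2 or more reads, a looser call, Id2 was in 78 of 86 BMCP and 2 of 40 GMP, and Tcf3 in 45 BMCP and 34 GMP.

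Id2 and the E protein genes were mostly found in the same BMCP. At 10 thinned reads, 54 of 86 BMCP had Id2 with at least 1 E protein gene, 16 had Id2 alone, 13 had an E protein gene without Id2, and 3 had neither. Of 40 GMP, 33 had an E protein gene without Id2, 6 had neither, 1 had Id2 with an E protein gene and 0 had Id2 alone. The states that a BMCP took were varied: after Id2 alone, the commonest were Id2 with Tcf3 (14 cells), Id2 with Tcf12 (9 cells), Id2 with Tcf4 and Id2 with Tcf3 and Tcf4 (8 cells each). The commonest in GMP were Tcf3 alone and Tcf3 with Tcf4, in 9 cells each.

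**Figure D2:**
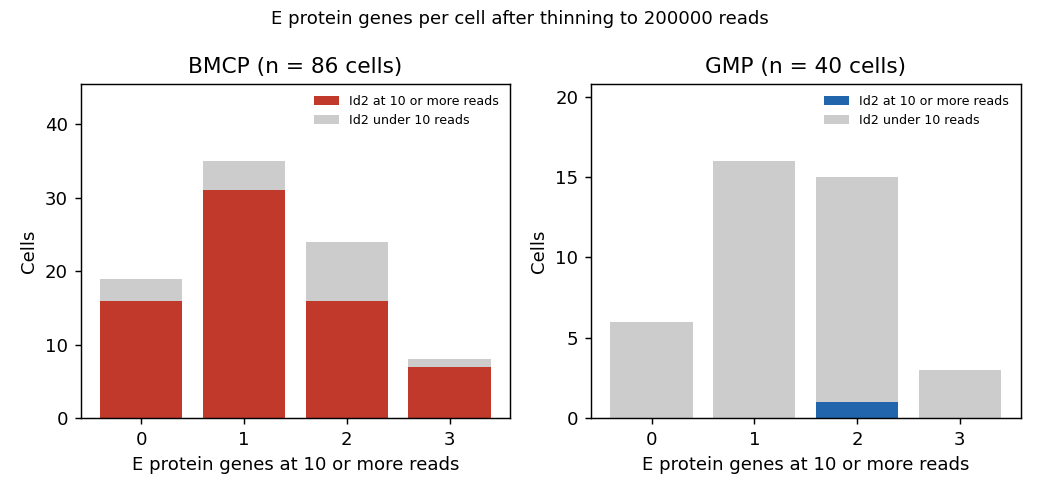
Number of E protein genes (0 to 3) at 10 or more reads in each cell thinned to 200000 reads, for 86 BMCP (left) and 40 GMP (right); bar height is the number of cells and the coloured part has Id2 at 10 or more reads. BMCP with 0, 1, 2 and 3 E protein genes numbered 19, 35, 24 and 8, of which 16, 31, 16 and 7 also had Id2, while GMP numbered 6, 16, 15 and 3 with 1 Id2-positive cell.

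The presence of a member in a BMCP told little about another. Id2 and Tcf3 were found together in 34 BMCP, where independent draws at their shares would give 34.2. Id2 and Tcf4 were together in 26 cells against 25.2, and Id2 and Tcf12 in 24 against 27.7. Tcf3 and Tcf12 were together in 19 BMCP against 16.6, and Tcf3 and Tcf4 in 16 against 15.1. Over the 89 BMCP, Spearman correlations of log2(CPM + 1) between Id2 and the E protein genes ranged from -0.14 to -0.09, and those among the E protein genes from -0.03 to 0.13. Over the 41 GMP, those among the E protein genes ranged from -0.04 to 0.05. All cells of a population share gate and preparation, and these weak values are descriptions.

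**Figure D3:**
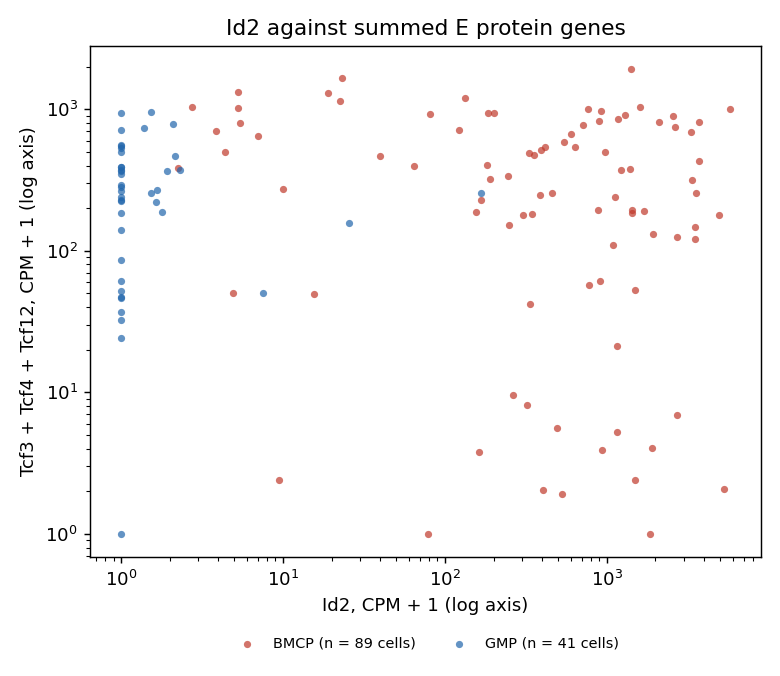
Id2 against the sum of Tcf3, Tcf4 and Tcf12 in each of 89 BMCP (red) and 41 GMP (blue), both as CPM + 1 on log axes. Most GMP stack at 0 of Id2, 13 of 41 have Id2 reads up to 166 CPM, and their E protein sum is 0 to 961 CPM. BMCP spread over the whole range of Id2, with an E protein sum of 0 to 1918 CPM.

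The E protein genes were also summed in each cell. The sum of Tcf3, Tcf4 and Tcf12 had a median of 336 CPM in BMCP (0 to 1918) and 263 CPM in GMP (0 to 961). It fell under 10 reads in 16 of 89 BMCP and in 1 of 41 GMP. Most cells of both populations therefore had reads of at least 1 E protein gene.

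Levels of different genes were compared after division by the length of the merged exons. Per kb, the order of levels in BMCP was Id2 (435 CPM per kb), Tcf3 (43.3), Tcf12 (11.5), Tcf4 (4.33), Id3 (2.46) and Id1 (0.767). In GMP it was Tcf3 (41.7 CPM per kb), Id1 (10.8), Tcf12 (4.56), Tcf4 (1.96), Id2 (1.53) and Id3 (0). The ID genes made up 88.1% (87.9 to 88.4) of the length-scaled level of all 6 members in BMCP and 20.3% (18.7 to 22.1) in GMP. In single cells the median ID share was 90.9% in BMCP, with quartiles of 62.7% and 98.0%, and 0% in GMP. ID genes exceeded E protein genes in 68 of 89 BMCP and in 7 of 41 GMP. Merged exons are long for Tcf4 and Tcf12, whose transcripts are many. With the median length of coding transcripts in place of merged exons, the BMCP order was Id2 (835 CPM per kb), Tcf12 (78.9), Tcf4 (64.4) and Tcf3 (61.8), so the order among the E protein genes depended on the length used while Id2 stayed first. In GMP the order was then Tcf3 (59.4 CPM per kb), Tcf12 (31.4), Tcf4 (29.1), Id1 (11.9) and Id2 (2.94), which moved Id1 behind all E protein genes. The ID share was then 80.4% in BMCP and 11% in GMP, the median over BMCP was 76%, and ID genes exceeded E protein genes in 69 of 89 BMCP and 3 of 41 GMP. These are shares of messenger RNA, and protein was not measured.

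Not all BMCP were rich in Id2. In 13 of 89 it lay below 10 reads, at 1.24 to 21.5 CPM (median 4.30), against 17.9 to 5774 CPM (median 889) in the other 76. These 13 cells had a median depth of 697617 counts against 919392 and a median of 5440 genes against 5447, and 6 belonged to numbers 1 to 47 and 7 to numbers 48 to 94. They kept Gata2, the transcription factor of the mast cell and basophil lineage, at a median of 1935 CPM against 1901 in the others. The median of Gzmb was 1645 CPM against 6398, and that of the mast cell carboxypeptidase gene Cpa3 was 1183 against 3320. Tcf12 had a median of 104 CPM in the low-Id2 cells against 5.03 in the others, and Tcf4 46.1 against 4.96, while Tcf3 stood at 4.52 against 46. The ranges of all 3 E protein genes overlapped between the sets. The set was drawn from Id2 itself, so nothing here was tested.

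Across all BMCP, the gene whose pattern was most like that of Id2 was Cpa3, with a Spearman rho of 0.67 over 89 cells among 1782 genes compared. Next came the phospholipid flippase gene Atp8b5 (0.59) and Gzmb (0.57). The lowest were the sialyltransferase gene St8sia6 (-0.55), Gm7676 (-0.54) and Ifitm1 (-0.54), an interferon-induced membrane protein gene. In all, 10 genes reached an absolute rho of 0.5. The value for Cpa3 was 0.71 within BMCP 1 to 47 and 0.61 within 48 to 94, while that for St8sia6 was -0.71 and -0.38. No gene reached 0.5 with Tcf3, Tcf4 or Tcf12 in BMCP, where the highest values for Tcf3 and Tcf12 were 0.33 and 0.37. In GMP, 12 genes reached 0.5 with Tcf3, 7 with Tcf4 and 1 with Tcf12, among 4005 genes (4006 for Tcf12) over 41 cells. The highest for Tcf3 were Impdh2-ps (0.55), the angiopoietin gene Angpt1 (0.51) and Ewsr1 (0.51), and the lowest Gm9493 (-0.63), the ubiquitin ligase gene Rlim (-0.59) and Dpm3 (-0.59). The highest for Tcf4 were Tars2 (0.55) and Taz (0.54) and among the lowest were S100a13 (-0.57) and Ufc1 (-0.56). Drg2 (0.54) was the gene alike to Tcf12. After thinning to 200000 reads, Drg2 with Tcf12 was at 0.41 and Impdh2-ps with Tcf3 at 0.45, both under 0.5, and Gm9493 with Tcf3 at -0.50. Without thinning, Pearson's r of Gm9493 with Tcf3 was -0.47.

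**Figure D4:**
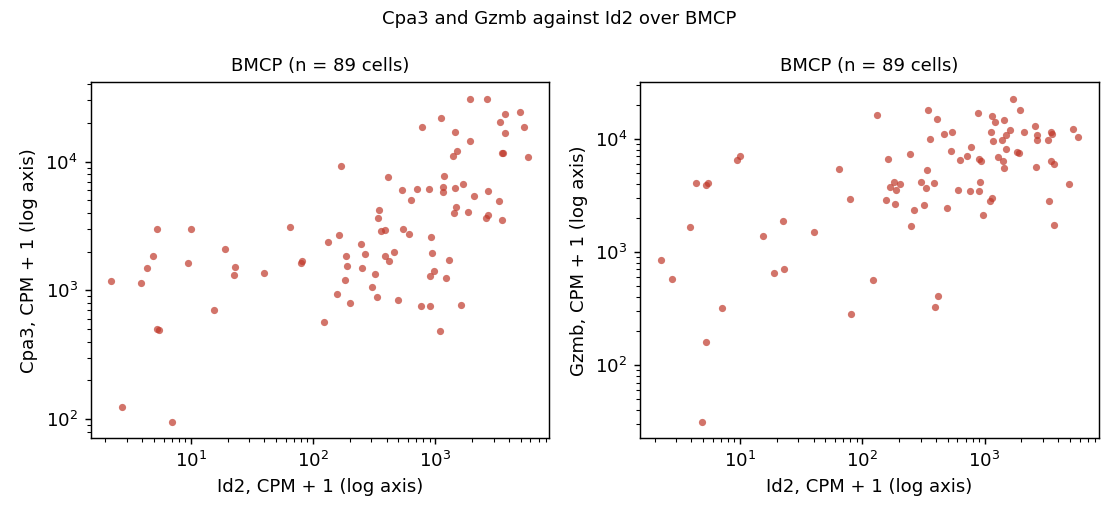
Cpa3 (left) and Gzmb (right) against Id2 in 89 BMCP, all as CPM + 1 on log axes; a point is a cell. Both are higher in the cells with more Id2, with Spearman rho of 0.67 for Cpa3 and 0.57 for Gzmb.

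BMCP were also split by single lineage genes at 10 thinned reads. The 20 BMCP with Mcpt8, a basophil protease gene, had a median Id2 of 1599 CPM against 350 CPM in the 66 others. The 26 BMCP with Cma1, the mast cell chymase gene, had a median Id2 of 1430 CPM against 325 CPM in 60. The 29 with Mitf, a mast cell transcription factor gene, had 1118 CPM against 330 CPM in 57. Id2 was detected in 19 of 20, 25 of 26 and 28 of 29 of these cells. High Id2 was thus found in BMCP with Mcpt8 as well as in those with Cma1 or Mitf, although the ranges overlapped in every split. A cell could fall in several of these sets, and how many cells they shared is not given here. The lowest Id2 among the BMCP with Mcpt8 was 3.93 CPM, in replicate 12, the cell with the lowest mast cell sum and a basophil sum that was mostly Prss34. In the 30 BMCP with Car1, a carbonic anhydrase gene of early erythroid cells, the Id2 median was 373 CPM against 772 CPM in 56. In the 24 with Gata1 it was 387 CPM against 673 CPM in 62, and in the 19 with Lyl1 it was 529 CPM against 543 CPM in 67. The 36 with Tal1 had a median Id2 of 914 CPM against 411 CPM in 50, and the 38 with Fos had 358 CPM against 889 CPM in 48.

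For the E protein genes, detection was counted in the same way, and the exact limits overlapped in each split given. More splits were counted, and the BMCP splits given had among the widest gaps for each gene. Others were flatter: Tcf3 was detected in 19 of 38 BMCP with Fos (50%) and in 23 of 48 without (47.9%). Tcf3 was detected in 6 of 20 BMCP with Mcpt8 (30%, 11.9 to 54.3) and in 36 of 66 without (54.5%, 41.8 to 66.9). Tcf4 was detected in 13 of 24 BMCP with Gata1, an erythroid and mast cell transcription factor gene (54.2%, 32.8 to 74.4), and in 18 of 62 without (29%, 18.2 to 41.9). Tcf12 was detected in 8 of 29 BMCP with Mitf (27.6%, 12.7 to 47.2) and in 26 of 57 without (45.6%, 32.4 to 59.3). None of the 19 GMP with Gata2 reached 10 thinned Id2 reads, and the highest was 24.5 CPM, in replicate 30. Tcf3 was in 15 of these 19 GMP and in 15 of the 21 others, and Tcf4 in 5 and 10. Counting limits overlapped here too.

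The genes that work with the members were counted from lists. Of all genes, 25.8% were at least 2-fold higher in BMCP and 21% lower, or 15.2% and 43.2% with spike-in scaling. These shares are the background of every list below. Class II bHLH factors, the tissue-restricted dimer partners of E proteins, were mostly silent: 5 of 26 reached 1 CPM, 1 was at least 2-fold higher in BMCP and 4 lower, with a median log2 ratio of -1.42 against 0.04 for all genes. Of the 4 lower, Ascl2 did not reach 2-fold without its top GMP, which left 3. Bhlha15 had 10 thinned reads in 3 GMP, and Twist1 in no cell. The 2 blood factors of this list had opposite directions. Tal1 stood at 139 CPM against 23.9 CPM for GMP (log2 ratio 2.49), with 10 thinned reads in 36 of 86 BMCP and 9 of 40 GMP. Lyl1, its close relative, was at 80.3 CPM and 216 CPM (-1.42), in 19 BMCP and 31 GMP.

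Proteins that assemble with TAL1 and E proteins on DNA gave 21 measured genes of 24, of which 9 were at least 2-fold higher in BMCP and 3 lower (4 and 5 with spike-in scaling), with a median of 0.63. Higher in BMCP were Lmo4 (2807 CPM against 410), Gata2 (2083 against 282), Runx1 (813.5 against 166), Cbfa2t3 (276 against 90.3), Crebbp (202 against 63.1) and the LIM-domain-binding bridge Ldb1 (109 against 42.1). Lmo2, the LIM-only protein of the classical TAL1 complex, was lower at 37.3 CPM against 343, a log2 ratio of -3.17. Lmo1 was lower as well, at 0.0119 CPM against 26. The LIM-only genes thus differed in direction, with Lmo4 the main one in BMCP and both Lmo2 and Lmo4 present in GMP.

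**Figure D5:**
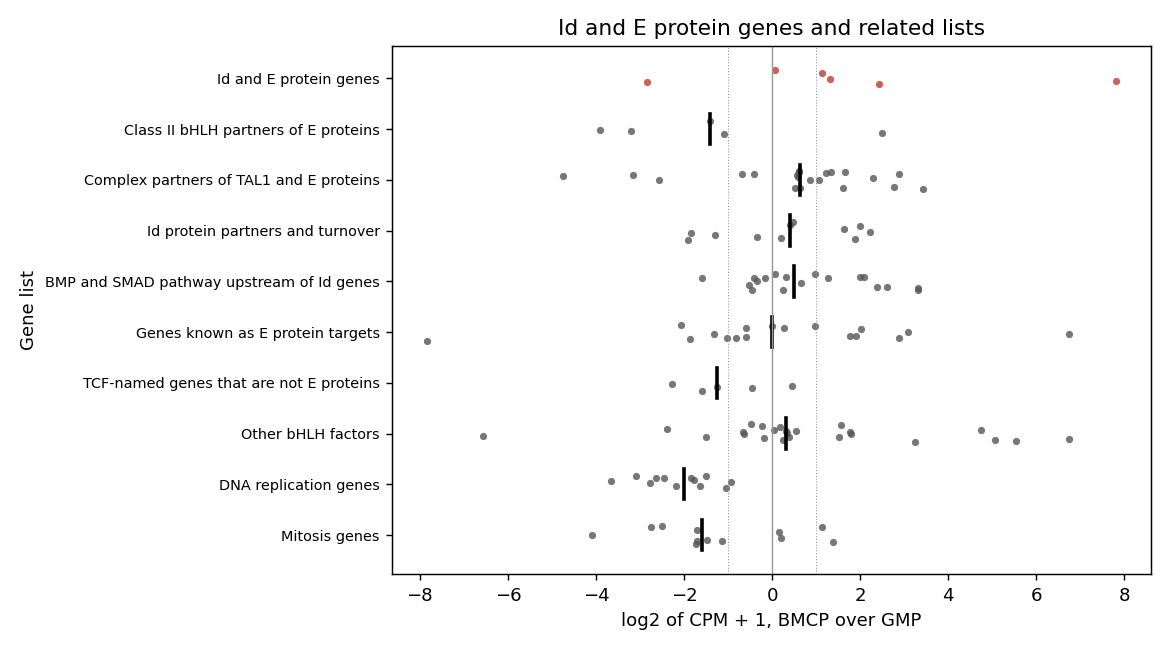
Log2 ratio of summed CPM + 1, BMCP over GMP, for the 6 members (red) and for the measured genes of each related list (grey); a point is a gene, a black bar is a list median, and dotted lines mark 2-fold. Id2 lies at 7.81 at the far right, and the DNA replication and mitosis lists have medians of -2.01 and -1.59.

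Genes known for binding ID proteins or setting their turnover gave 11 measured genes of 12, with 4 at least 2-fold higher in BMCP and 3 lower (median 0.40). The pocket protein genes went in opposite directions, with Rbl2 at 187 CPM in BMCP against 39 in GMP and Rbl1 at 21.2 against 82.4. The activators of the anaphase-promoting complex did so too, with Fzr1, which serves quiescent and G1 cells, at 242.5 CPM against 59.9 and Cdc20, the mitotic activator, at 28.1 against 103. The ETS factor gene Elk1 (26 against 6.34) and Gfi1b (45.3 against 13.9) were higher in BMCP, and Usp1, a deubiquitinase that stabilises ID proteins, was lower at 79.2 CPM against 197. The BMP and SMAD pathway, which switches on Id genes in many cells, gave 18 measured genes of 21, with 7 at least 2-fold higher in BMCP and 1 lower (6 and 7 with spike-in scaling), and a median of 0.49. The TGF-beta receptor genes Tgfbr2 (237.5 CPM against 58.6) and Tgfbr1 (87.7 against 19.8), the BMP receptor gene Bmpr2 (43.5 against 17.5) and the inhibitor Smad7 (25 against 3.98) were among those 7. The lower gene, Acvrl1, did not reach 2-fold without its top GMP. Among the higher genes, Bmpr1a rested on 1 BMCP, at 5.23 CPM with it and 0.0240 CPM without it. Without the top cell of each gene and population, 7 genes were higher and 0 lower, with Smad1 in place of Bmpr1a.

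Of 27 genes known elsewhere as E protein targets, mainly in lymphocytes, 17 were measured, and 6 were at least 2-fold higher in BMCP and 5 lower (5 and 8 with spike-in scaling), with a median of 0.00. The largest were Hes1, a bHLH repressor gene, at 117 CPM in BMCP against 0.108 in GMP (6.74), and Irf8, the monocyte and dendritic cell factor gene, at 0.202 against 274 (-7.84). The cell cycle inhibitor genes split, with Cdkn1b at 48.5 CPM against 4.86 and Cdkn2d at 87.5 against 25.1, while Cdkn1a was lower at 10.8 against 42. Foxo1 was at 36.2 CPM against 4.09 and Gfi1 at 12.8 against 56.6. The list as a whole therefore had no common direction. Genes with TCF names that are not E proteins gave 5 measured of 7, with 0 higher and 3 lower, among them Tcf19 at 10.9 CPM against 27.2, where 1 BMCP held nearly all reads (0.0362 CPM without it).

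Among 24 measured bHLH factors of other classes, of 27 listed, 9 were at least 2-fold higher in BMCP and 3 lower (5 and 9 with spike-in scaling), with a median of 0.32. Mitf was at 78.8 CPM against 1.40, Bhlhe40 at 63.3 against 1.39, Mxd4 at 182 against 52.4, Tfe3 at 52.5 against 14.5 and Srebf2 at 160 against 53.1. Ahr, the aryl hydrocarbon receptor gene, was at 45.2 CPM in BMCP with 0 reads in GMP, at least 836-fold higher than a floor of 3 counts over the GMP pool. Tfec was at 92.9 CPM in GMP with 0 reads in BMCP, which was at least 2610-fold higher than the same floor over the BMCP pool. Mitf and Tfec encode relatives of 1 subfamily and had opposite directions.

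E and ID proteins act on the cell cycle in many tissues, so 2 proliferation lists were counted beside them. Of 12 DNA replication genes, 11 had a level in BMCP at least 2-fold below that in GMP and 0 were higher (median -2.01), for example Mcm5 at 59.6 CPM against 517. Of 12 mitosis genes, 8 were lower and 2 higher (median -1.59). The higher pair, Ube2c and Cenpf, had log2 ratios of 1.38 and 1.13, and of 0.66 and 0.62 without the top cell of each population. In GMP, 1 of 17 cells with Mki67 and 0 of 23 without it had 10 thinned Id2 reads. Over all lists, 124 of 167 distinct genes were measured, with 37 at least 2-fold higher, 41 lower and a median of 0.10. Of all genes, 25.8% were higher and 21% lower. The DNA replication and mitosis lists held 11 and 8 of the 41 lower genes.

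Markers of lymphoid and plasmacytoid dendritic cells, which are rich in members of the family, were counted, although the BMCP and GMP sorts were on lineage-negative cells. The 8 plasmacytoid dendritic genes, whose cells depend on Tcf4, summed to a median of 6.07 CPM in BMCP (0 to 1265) and 88.5 CPM in GMP (0 to 554), with Siglech, Spib, Klk1 and Pacsin1 at 0 in both. The 9 natural killer and innate lymphoid genes, whose cells need Id2, summed to a median of 1183 CPM in BMCP (4.28 to 4418) and 846 CPM in GMP (30.7 to 4452). Nkg7 carried most of this sum, at 1185 and 1128 CPM of the pools, with Ncr1 and Tbx21 at 0 in both and Klrb1c at 0 in BMCP. The 7 B cell genes had a median of 0.788 CPM in BMCP (0 to 1079) and 63.2 CPM in GMP (0 to 584), with Igll1 at 0 in both. The 7 T cell genes had a median of 0 in each, with maxima of 33.7 and 209.6 CPM. Their part in the levels of the members was not tested.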

How the data were processed

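Single cells were lysed in plates and polyA RNA was reverse transcribed, amplified in 23 rounds of PCR alongside ERCC spike-ins and sequenced as single-end 50-base reads, per the labels' protocols. The submitters' processing notes name GSNAP, HTSeq 0.5.3p3 and genome build mm10, while annotation and strand setting are not given in the sources used here. Deposited values are whole-number read counts per gene and cell, not normalized by the authors. Nothing in the labels ties a cell to a mouse or a plate, so each population was 1 sample and no p-value was computed.

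Cells with at least 50000 nuclear-encoded counts, 1000 genes, at most 10% mitochondrial counts and at most 50% spike-in were kept, which left out 5 BMCP and 6 GMP. Rows without a gene were left out of totals: in BMCP and GMP, reads with no feature took 17.6% and 11.1%, ambiguous reads 3.77% and 6.03%, and unaligned reads 30.4% and 27.5%. Ratios are log2(CPM + 1) of summed counts, BMCP over GMP, and a gene was measured at 1 CPM in either population. A count of 3 was the floor, 0.0356 CPM over the BMCP pool and 0.0540 CPM over the GMP pool. Likeness is Spearman's rho of log2(CPM + 1) over cells, with genes of at least 20 CPM detected in 50% of thinned cells compared.

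The 6 members and all lists were chosen with earlier results of these data known. Named were the members, up to 8 genes of each list past 2-fold with at least 20 CPM, and the 3 genes at each end of likeness. Of the DNA replication and mitosis lists, only examples chosen after their values were seen are named. Some SMAD pathway and class II bHLH genes were also named after their values were seen. Marker lists describe cells. A few genes that these rules name, and a sequence, are not reported here. Coordinates are those of GENCODE vM21, and 45192 of 46078 rows matched a symbol. Alternatives covered cell weighting, scaling (TMM from edgeR 4.0.16, median of ratios, spike-in), pseudocount, filters, thinning, gene length and left-out cells. Scripts used Python 3.11.15, numpy 2.4.6, pandas 2.3.3 and scipy 1.17.1, and were tested on simulated data.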

Additional observations from a re-analysis of the deposited data

Results flagged for a closer look

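The cells that the filter left out held Id2 too. In the 5 BMCP left out, summed Id2 was 473 CPM (433 to 515, 532 reads), with a read in 5 of 5 cells, above the 3.73 CPM of the kept GMP and the 0.534 CPM (1 read) of the 6 GMP left out. These cells entered the ratios only in the alternative with no cell filter, where the log2 ratio of Id2 was 7.83, and their totals ran from 6911 to 595132 counts in BMCP. Tcf3 stood at 254 CPM in the left-out BMCP and 284 CPM in the left-out GMP, and Tcf4 at 282 and 76.4 CPM. Tcf12 stood at 1.78 CPM (2 reads) and 10.7 CPM (20 reads), an order opposite to that of the kept cells.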

How the results depend on the processing

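The direction of Id1 and of Id2 was kept, at least 2-fold, under all 13 alternatives of the ratio, with log2 ratios of -3.78 to -1.05 and 6.28 to 8.64. Tcf12 ranged from 0.46 to 1.54 and was at least 2-fold higher in 11 of 13, Tcf4 from 0.27 to 1.57 in 9 of 13, and Id3 from 0.00 to 5.49 in 10 of 13. Tcf3 ranged from -0.81 to 0.12 and never reached 2-fold. The members at least 2-fold higher numbered 4 as reported, 2 with spike-in scaling and 2 with BMCP 48 to 94 only. Spike-in scaling moved the list genes at least 2-fold higher from 37 to 23, those at least 2-fold lower from 41 to 61, and the split of all genes from 25.8% higher and 21% lower to 15.2% and 43.2%. The median number of members detected per BMCP at 2 thinned reads was 2.5, and was 3 at 1 read, 2 at 10 reads, 2 after thinning to 100000 reads, 3 without thinning and 3 with a second random seed. The ID share in BMCP, 88.1%, was 84.2% with the longest transcript as length, 80.4% with the median coding transcript, 69.3% with no length scaling, 88.8% from the mean of cells, 87.3% without the cell with most member reads, and 90.3% and 86.3% in BMCP 1 to 47 and 48 to 94. In GMP, 20.3% became 14.5%, 11%, 5.25%, 28% and 22.8% under the first 5 of these settings. The cause of each of these moves was not tested. Leaving out BMCP replicate 12 and GMP replicate 30 together, and counting the lists without the top cell of each gene, were chosen after seeing the data. No paired analysis was possible because no test was run and the numbers name cells only. A single cell holds most reads of Id3 in BMCP and of Id2 in GMP.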
